A study of Mus musculus with 9 samples.

Results

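The genes described here are 5 members of nucleotide sugar routes: Gmds, Pmm1, Uap1l1, Gnpda1 and Slc35d2. Not all of them add to supply, since Gnpda1 runs against its route. The 5 genes were found by matching the RefSeq accession in each probe set's identifier to the mouse gene. This gave 1 probe set for each of the 5 genes, out of 909 genes named by 963 of the 1246 probe sets on the array. RNA was measured on 9 single-colour arrays of the custom GLYCOv4 design, which carries glycosylation enzymes, lectins, cytokines and related genes. All samples were purified CD8 T cells of female mice of the B10D2 strain that carried a transgenic T cell receptor. The 3 deletion samples held cells that had received a weak signal from their antigen inside the animal, and the 3 anergy samples cells that had received a strong one. The 3 naive samples were the control. Deletion and anergy are both forms of tolerance, in which responding cells are lost or remain but do not respond, and the study asked which glycosylation transcripts differ between them. No source used here names the receptor, the antigen, its dose and time, the age of the mice or whether replicates came from separate mice. The p-values therefore rest on the scatter among these arrays alone, and that scatter may be technical.

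Glycosyltransferases do not use free sugars. Each sugar is first phosphorylated, rearranged and joined to a nucleotide in the cytosol, as GDP-mannose, GDP-fucose or UDP-GlcNAc for example, and most of these donors are then carried into the Golgi or the endoplasmic reticulum by transporters of the SLC35 family. The hexosamine route branches from glycolysis at fructose phosphate and ends in UDP-GlcNAc, which feeds N-glycan branching and O-GlcNAc modification, and in T cells the supply of this donor is known to limit N-glycan branching. In T cells GDP-fucose is needed for selectin ligands and for the fucose of Notch receptors.

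Deposited values are log2 expression values, so a difference of 1 is a 2-fold change, and levels of unlike genes are not compared since each probe set binds with its own strength. Array medians lay between 4.44 and 4.58, and replicates of a group correlated at 0.9948 or more across probe sets. Anergy replicate 3 stood apart: the spread (SD) of its values over probe sets was 2.29, against 2.40 to 2.46 on the other 8 arrays, and its residuals from the group mean had an SD of 0.166, against 0.0943 to 0.128. Of the 623 probe sets above the median level, 63.9% were lowest in anergy replicate 3 of the 3 anergy arrays, and all 5 genes described here were. The values without this array are given for the 5 genes, and for other named genes where leaving it out changed a call or moved a called value by over 1.5 times. Of 10 T cell genes listed as markers only Cd2 had a named probe set, so CD8 identity was not checked, and Cd2 itself lay at 9.82 to 10.38 in deletion, 9.33 to 9.48 in anergy and 11.53 to 11.68 in naive arrays. In bulk RNA, fewer cells of one type and less RNA per cell cannot be told apart.

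Against naive cells, Gmds, Pmm1, Uap1l1 and Gnpda1 were higher in both tolerized states, by 1.59-fold to 2.28-fold, while Slc35d2 was not higher in either. Gmds, the dehydratase that turns GDP-mannose toward GDP-fucose, read 7.15, 7.04 and 7.02 in deletion replicates 1 to 3, 7.62, 7.49 and 7.04 in anergy replicates 1 to 3, and 6.22, 6.37 and 6.06 in naive replicates 1 to 3. Every array of tolerized cells was above every naive array. Gmds rose 1.81-fold in deletion cells (95% limits 1.46 to 2.24; adjusted p = 0.00152) and 2.24-fold in anergy cells (1.81 to 2.79; adjusted p = 0.00014), by limma with Benjamini-Hochberg adjustment over all 1246 probe sets and n = 3 arrays a group, as for all such values here.

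Pmm1, a phosphomannomutase that interconverts the mannose phosphates on the way to GDP-mannose, read 7.77, 7.83 and 7.48 in deletion replicates 1 to 3, 8.27, 8.19 and 7.83 in anergy replicates 1 to 3, and 7.01, 6.92 and 6.80 in naive replicates 1 to 3. The lowest array of tolerized cells was 7.48 and the highest naive array 7.01, so these groups did not overlap. Pmm1 rose 1.72-fold in deletion cells (1.41 to 2.10; adjusted p = 0.00157) and 2.28-fold in anergy cells (1.86 to 2.78; adjusted p = 6.96e-05). Gmds and Pmm1 act in one route, with GDP-mannose between them, and their profiles over the 9 arrays were each other's nearest among the named genes. The measure was the root mean square difference between log2 values set to 0 at each gene's naive mean. It was 0.112 between Gmds and Pmm1, against a median of 0.868 between Gmds and all named genes and of 0.854 between Pmm1 and all named genes. The measure grows with a gene's own shift from naive, so these medians mainly reflect the rises of Gmds and Pmm1. B4galt5 lay 0.144 from Gmds, and Arsb 0.132 from Pmm1. The 5 genes were chosen with these results known, so the nearness is no test that Gmds and Pmm1 are regulated together. Points of one array share its RNA and labelling.

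The promoters of these 2 genes, the pair with the nearest profiles among the 5, are shown from 250 bases before to 50 after the start of each gene (RefSeq, GRCm38.p6). Those of Uap1l1, Gnpda1 and Slc35d2 are not shown, although Uap1l1 and Gnpda1 also rose in both states. The Gmds window is chr13:32338495-32338794 and the Pmm1 window chr15:81960881-81961180, both on the minus strand. Capitals mark the GC box GGGCGG or its reverse complement CCGCCC.
Gmds: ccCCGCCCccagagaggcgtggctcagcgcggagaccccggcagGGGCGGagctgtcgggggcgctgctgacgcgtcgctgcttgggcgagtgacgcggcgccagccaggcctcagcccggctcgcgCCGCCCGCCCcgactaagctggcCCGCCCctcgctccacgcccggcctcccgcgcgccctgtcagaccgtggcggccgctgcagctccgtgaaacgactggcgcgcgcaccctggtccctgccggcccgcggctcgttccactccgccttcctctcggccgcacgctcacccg
Pmm1: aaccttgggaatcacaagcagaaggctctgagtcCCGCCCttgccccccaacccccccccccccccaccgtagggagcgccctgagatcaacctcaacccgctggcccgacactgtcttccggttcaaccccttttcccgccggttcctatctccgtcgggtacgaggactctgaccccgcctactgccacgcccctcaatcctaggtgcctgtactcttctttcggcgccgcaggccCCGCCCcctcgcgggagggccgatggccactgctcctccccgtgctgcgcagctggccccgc
The Gmds window held 5 GC boxes, 2 of which overlap, and the Pmm1 window 2. On both strands, 35.7% of 32851 RefSeq promoter windows of this length hold at least 1. Neither window held the E box CACGTG, present in 7.15% of windows, or the CCAAT box (CCAAT or ATTGG), present in 37.4%. G and C made up 78.0% of the Gmds window and 68.0% of the Pmm1 window. These matches describe the letters only.

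Among the genes of the hexosamine route, Uap1l1 is a relative of Uap1, the enzyme that makes UDP-GlcNAc. Uap1l1 read 8.14, 7.85 and 8.15 in deletion replicates 1 to 3, 7.99, 7.90 and 7.73 in anergy replicates 1 to 3, and 7.28, 6.93 and 7.01 in naive replicates 1 to 3. The deletion and anergy arrays overlapped each other and lay above all naive arrays. Uap1l1 rose 1.96-fold in deletion cells (1.64 to 2.35; adjusted p = 0.000197) and 1.74-fold in anergy cells (1.45 to 2.09; adjusted p = 0.000511).

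Gnpda1, a deaminase that returns glucosamine phosphate to fructose phosphate and so runs against the hexosamine route, had the smallest SE of the 5 genes (0.07). It read 7.52, 7.58 and 7.51 in deletion replicates 1 to 3, 7.77, 7.92 and 7.72 in anergy replicates 1 to 3, and 6.90, 6.92 and 6.78 in naive replicates 1 to 3. None of the 3 groups overlapped another, with anergy highest and naive lowest. Gnpda1 rose 1.59-fold in deletion cells (1.43 to 1.78; adjusted p = 7.73e-05) and 1.91-fold in anergy cells (1.71 to 2.14; adjusted p = 5.05e-06).

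Slc35d2, a Golgi transporter of nucleotide sugars that carries UDP-GlcNAc in human cells, read 6.37, 6.32 and 6.31 in deletion replicates 1 to 3, 6.31, 5.94 and 5.78 in anergy replicates 1 to 3, and 6.31, 6.53 and 6.47 in naive replicates 1 to 3. Anergy replicates 2 and 3 were below all other arrays, while anergy replicate 1 equalled naive replicate 1, so the groups touched. In deletion cells the difference was -0.10 ± 0.12 on the log2 scale (SE; adjusted p = 0.72). In anergy cells it fell 1.34-fold (1.11 to 1.62; adjusted p = 0.0255), and this call was lost without anergy replicate 3 (-0.31; adjusted p = 0.0768), without anergy replicate 2 (adjusted p = 0.0839), without naive replicate 2 (0.0971), without naive replicate 3 (0.078), and with the deletion arrays left out of the limma fit (0.0696).

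**Figure D1:**
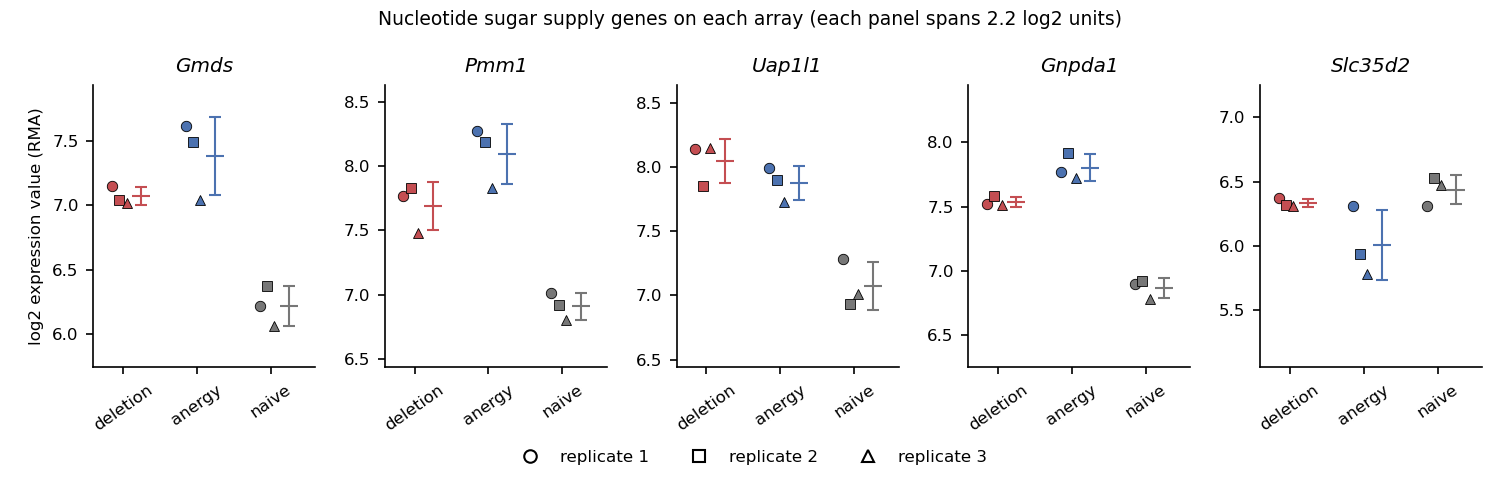
Log2 expression values of the 5 genes in deletion, anergy and naive samples, with 1 symbol per array (circle, square and triangle for replicates 1, 2 and 3) and the mean and SD of 3 arrays beside them; each panel spans the same range of log2 units around its own centre. Gmds, Pmm1, Uap1l1 and Gnpda1 lie above all naive arrays in deletion and anergy, and Slc35d2 is lowest in anergy replicates 2 and 3.

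In deletion against naive, 4 of the 5 genes rose and 0 fell, where 8.51% of all 1246 probe sets rose. The groups did not overlap for the same 4, as was seen upward for 14.2% of all probe sets. In anergy against naive all 5 passed, where 26.8% of all probe sets did: 4 rose, against 10.8% of all, and 1 fell, against 16.1%. The groups did not overlap upward for 4, against 13.2% of all, and downward for 0, against 20.7%. The genes were chosen with these results known, so the counts describe them and are no test. Both comparisons share the naive arrays. The median difference of the 5 was 0.78 in deletion and 0.94 in anergy, against -0.02 and 0.01 over all probe sets. By size, 34 probe sets had a larger rise than Uap1l1 in deletion and 30 a larger rise than Pmm1 in anergy. The rises of Gmds, Pmm1, Uap1l1 and Gnpda1 passed the threshold in both comparisons with naive cells under all 17 alternatives run. Without anergy replicate 3 the rises in anergy were 1.34 ± 0.09 for Gmds, 1.32 ± 0.11 for Pmm1, 0.87 ± 0.13 for Uap1l1 and 0.98 ± 0.07 for Gnpda1 (log2, SE).

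The nearest relatives and next enzymes of these genes gave other values. Pmm2, the other phosphomannomutase of the mouse, differed by -0.06 ± 0.08 in deletion and -0.21 ± 0.08 in anergy (adjusted p = 0.722 and 0.0745). Mpi, which makes the mannose phosphate that Pmm1 and Pmm2 use, differed by 0.05 ± 0.12 and 0.13 ± 0.12 (adjusted p = 0.898 and 0.491). Gfus, formerly Tsta3, which completes GDP-fucose after Gmds, differed by -0.02 ± 0.07 and -0.09 ± 0.07 (adjusted p = 0.919 and 0.437), with 95% limits of -0.17 to 0.13 in deletion and -0.24 to 0.06 in anergy. For Gfus the sign turned after quantile normalization (0.04 and 0.07).

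Uap1 read 6.77, 6.86 and 6.93 in deletion replicates 1 to 3, 6.99, 7.15 and 6.74 in anergy replicates 1 to 3, and 7.26, 7.46 and 7.14 in naive replicates 1 to 3. All deletion arrays were below all naive arrays, and 1 anergy array, replicate 2, lay just above the lowest naive one. Uap1 fell 1.35-fold in deletion cells (1.13 to 1.61; adjusted p = 0.0228), in the direction opposite to Uap1l1, and 13 of 18 settings kept this call. The call was lost after median centring (adjusted p = 0.0555) and without deletion replicate 1 (0.0877), deletion replicate 2 (0.0626), naive replicate 1 (0.0611) or naive replicate 2 (0.0932). In anergy the difference of Uap1 was -0.33 ± 0.11 (adjusted p = 0.062), and -0.22 ± 0.10 without anergy replicate 3 (adjusted p = 0.18).

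Gnpda2, the second glucosamine phosphate deaminase, differed by 0.29 ± 0.14 in deletion and 0.14 ± 0.14 in anergy (adjusted p = 0.225 and 0.547), and passed in both after quantile normalization (0.39 and 0.32; adjusted p = 0.0232 and 0.0405). Slc35d1, a transporter of UDP-sugars into the endoplasmic reticulum, differed by 0.25 ± 0.10 and 0.22 ± 0.10 (adjusted p = 0.131 and 0.149). Whether a gene's change differs from that of its relative was not tested.

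**Figure D2:**
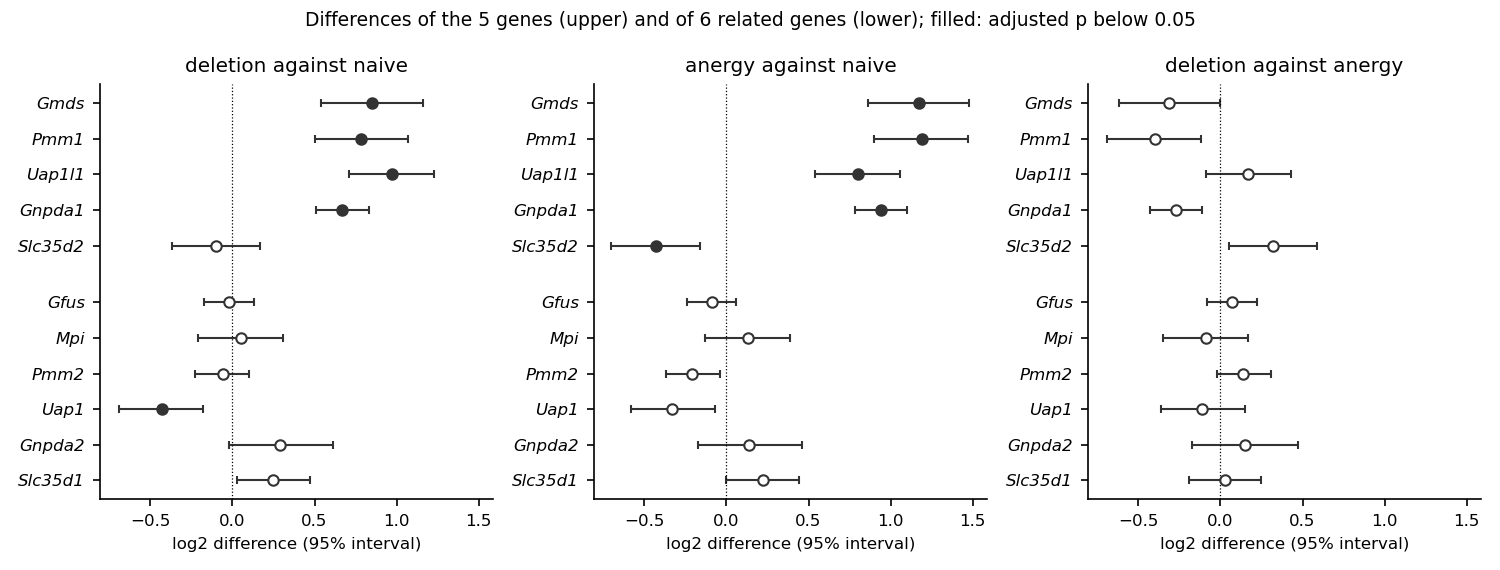
Log2 differences with 95% limits of the 5 genes (upper rows) and of 6 related genes (lower rows) in deletion against naive, anergy against naive and deletion against anergy (n = 3 arrays a group); filled points passed an adjusted p of 0.05. Gmds, Pmm1, Uap1l1 and Gnpda1 rise in both tolerized states, Uap1 falls in deletion, and 0 of the 11 genes pass between deletion and anergy.

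The 5 genes stand among 53 measured genes listed under donor supply and transport, grouped in 6 lists by route. The transporter list was drawn from the SLC35 family, and not all its members are known carriers of these donors. Galk2, Npl, Pgm3, Pgm5, Slc35d3 and Slc35f1 lay in the dimmest part of the array, with mean levels below 3.61, where a change could be missed. In deletion 9 of the 53 rose, 5 fell and 39 did not pass, where 8.51% of all probe sets rose and 10.5% fell, and the median of the 53 was -0.01 against -0.02 over all probe sets. Quantile normalization gave 14 rises and 4 falls (10.7% and 11.2% of all probe sets), and median centring 8 rises and 3 falls (6.66% and 9.55%). In anergy 11 rose, 7 fell and 35 did not pass, where 10.8% of all probe sets rose and 16.1% fell, and the median of the 53 was 0.03 against 0.01 over all probe sets. Here quantile normalization gave 16 rises and 6 falls (14.4% and 15.2% of all probe sets), median centring 8 and 6 (8.99% and 16.7%), and leaving out anergy replicate 3 gave 14 and 5 (12.0% and 14.4%). Without the 5 genes described, 5 of 48 rose and 5 fell in deletion, and 7 rose and 6 fell in anergy.

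Of 8 genes of GDP-mannose and GDP-fucose supply, only Gmds and Pmm1 rose in each comparison with naive cells and 0 fell, although 3 rose after quantile normalization. Gmppb, which makes GDP-mannose, differed by 0.16 in deletion and 0.10 in anergy (adjusted p = 0.295 and 0.462). Fpgt, of the salvage route to GDP-fucose, differed by -0.28 and -0.37 (adjusted p = 0.284 and 0.105). Under the alternatives Gmppb passed in 1 of 18 settings in each comparison (adjusted p = 0.00974 in deletion and 0.0044 in anergy). Fpgt passed in 1 of 18 in deletion and 2 of 18 in anergy. Slc35c1, the Golgi carrier of GDP-fucose, fell by 0.48 ± 0.11 in deletion (adjusted p = 0.0111) and by 0.49 ± 0.11 in anergy (adjusted p = 0.00716).

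Of 11 hexosamine genes, Uap1l1 and Gnpda1 rose in deletion and Uap1 and Gnpnat1 fell. In anergy the same 2 rose and Gnpnat1 fell. Gnpnat1, which acetylates glucosamine phosphate in the forward route, was lower by -0.40 ± 0.12 in deletion and -0.38 ± 0.12 in anergy (adjusted p = 0.0475 and 0.0439), and each call held in 9 of 18 settings. Without anergy replicate 3 the difference in anergy was -0.23 ± 0.08 (adjusted p = 0.0797). Under median centring 0 of the 11 fell in either comparison, and after quantile normalization 4 rose and 1 fell in deletion and 3 rose and 0 fell in anergy. Gfpt1, which commits fructose phosphate to the route, differed by 0.16 in deletion and 0.26 in anergy (adjusted p = 0.41 and 0.0943), and passed in anergy without replicate 3 (0.38 ± 0.07; adjusted p = 0.00436). Pgm3, which rearranges GlcNAc phosphate, differed by -0.01 and 0.10 (adjusted p = 0.976 and 0.472). Its means of 2.61 in deletion, 2.72 in anergy and 2.62 in naive cells lay in the dimmest part of the array, so a change could be missed.

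The other routes held rises of similar or smaller size. Nans, a synthase of sialic acid, rose by 0.67 ± 0.12 in deletion and 0.78 ± 0.12 in anergy (adjusted p = 0.00254 and 0.000658), and Cmah, which modifies CMP-sialic acid, fell by 0.72 ± 0.11 and 0.98 ± 0.11 (adjusted p = 0.00134 and 0.000124). They were the 1 rise and 1 fall among 5 sialic acid supply genes in each comparison with naive cells. Of 8 genes of UDP-glucose and the donors made from it, 3 rose and 0 fell in deletion, and 3 rose and 1 fell in anergy (2 rose in each under median centring, and 4 and 5 after quantile normalization). Ugdh, which makes UDP-glucuronate, rose by 0.58 ± 0.11 in deletion and 0.75 ± 0.11 in anergy, and Uxs1, which makes UDP-xylose from it, by 0.44 ± 0.08 and 0.46 ± 0.08 (adjusted p = 0.00343 and 0.000472 for Ugdh, 0.00298 and 0.00144 for Uxs1). Galt, of galactose salvage, fell by 0.58 ± 0.11 in anergy (adjusted p = 0.0026). Of 2 genes of sulfate donor synthesis 0 passed in limma, and 1 rose in deletion after quantile normalization.

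Among 19 genes of the transporter list 1 rose and 2 fell in deletion, and 3 rose and 4 fell in anergy. Slc35d2 was 1 of the 4 that fell in anergy, beside Slc35c1, Slc35e3 (-0.57 ± 0.11; adjusted p = 0.00257) and Slc35b3, which carries the sulfate donor (-0.69 ± 0.13; adjusted p = 0.00272). Slc35f5 rose in both (0.51 ± 0.09 in deletion and 0.43 ± 0.09 in anergy). Slc35a3, a Golgi carrier of UDP-GlcNAc like Slc35d2, rose by 0.37 ± 0.11 in anergy (adjusted p = 0.0367), in 10 of 18 settings. After median centring 1 transporter rose in anergy in place of 3. Slc35a2 was counted by the brighter of its probe sets, which differed by 0.06 in deletion and 0.19 in anergy (adjusted p = 0.81 and 0.15). Its other probe set passed in the opposite direction, at -0.38 ± 0.11 and -0.40 ± 0.11 (adjusted p = 0.0397 and 0.0234).

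**Figure D3:**
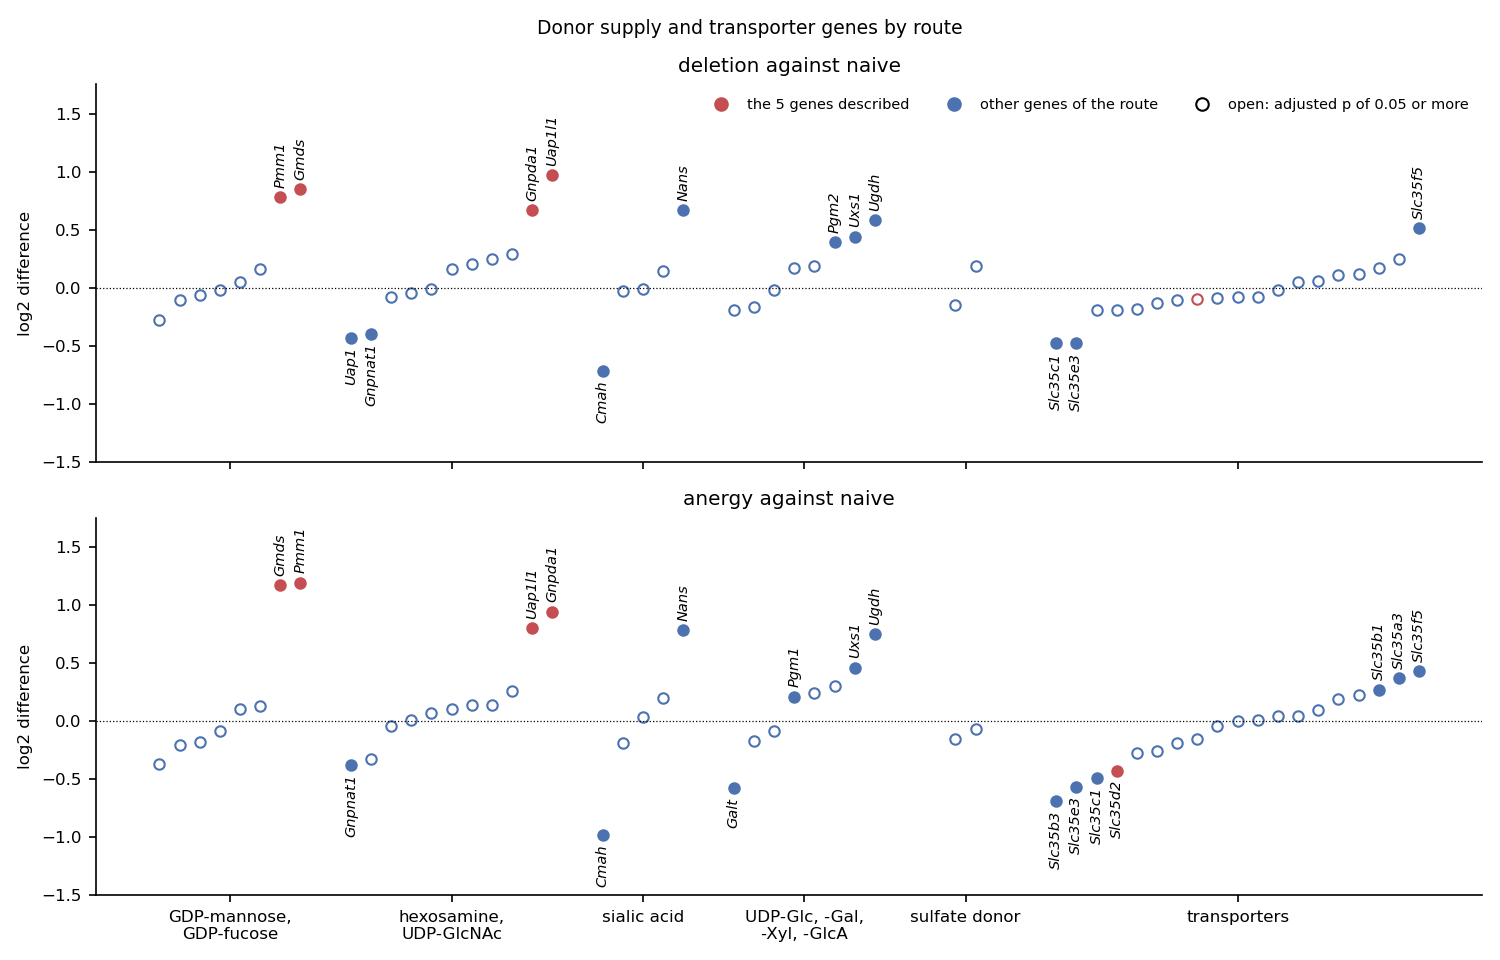
Log2 differences of 53 donor supply and transporter genes against naive cells, ordered by size within 6 routes, in deletion (upper panel) and anergy (lower panel); red marks the 5 genes described, and filled points passed an adjusted p of 0.05. Red points are the 2 largest rises of the GDP-mannose and hexosamine routes in each panel, and Slc35d2 lies below 0 in both.

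Genes listed as users of these donors both rose and fell, except that 0 of the list for GDP-mannose rose in anergy. Of all 1246 probe sets, 8.51% rose and 10.5% fell in deletion, and 10.8% rose and 16.1% fell in anergy. Whether the counts below differ from those shares was not tested. Of 10 users of GDP-fucose, 1 rose and 1 fell in deletion and 2 rose and 2 fell in anergy. Fut1, Fut9 and Fut10 had mean levels below 3.61, where a change could be missed. Fut2, 1 of the 2 falls in anergy (-0.25, adjusted p = 0.0214), averaged 3.52 in anergy and 3.77 in naive cells. Its other probe set did not pass (-0.22 ± 0.11, adjusted p = 0.189). Fut7, the fucosyltransferase of selectin ligands, rose by 1.20 ± 0.15 in deletion and 0.58 ± 0.15 in anergy, Fut8, of core fucose, by 0.42 ± 0.10 in anergy, and Pofut2 fell by 0.42 ± 0.08 in deletion and 0.45 ± 0.08 in anergy. Of 34 users of UDP-GlcNAc, 5 rose and 5 fell in deletion and 6 rose and 6 fell in anergy. Gcnt1, the core O-glycan branching enzyme, counts as a rise by the brighter of its 2 probe sets, which averaged 4.85 ± 0.13 in deletion, 4.83 ± 0.22 in anergy and 2.68 ± 0.26 in naive cells (SD, n = 3 each). That naive level is within the dimmest part of the array, where mean levels lie below 3.61, so no size is given for it. The other Gcnt1 probe set differed by 0.19 ± 0.10 in deletion and 0.26 ± 0.10 in anergy and did not pass (adjusted p = 0.285 and 0.104). B3gnt2, of polylactosamine, rose by 0.73 ± 0.10 and 0.54 ± 0.10, while Piga, of GPI anchors, fell by 0.98 ± 0.15 and 1.09 ± 0.15. The list for GDP-mannose holds 10 genes, not all of which use it directly. In deletion 1 rose and 2 fell, and in anergy 0 rose and 4 fell. Alg1, the first mannosyltransferase of the N-glycan precursor, was lower by -0.77 ± 0.09 in deletion and -1.01 ± 0.09 in anergy (adjusted p = 0.000182 and 1.88e-05). The other falls in anergy, of Alg2, Alg12 and Pomt2, did not pass without anergy replicate 3 (adjusted p = 0.0797, 0.133 and 0.074). Of 3 glycolysis genes measured, 0 passed in deletion and 2 rose in anergy: Aldoa (0.55 ± 0.06; adjusted p = 0.000124) and Gpi1, which makes the fructose phosphate that Gnpda1 also yields (0.25 ± 0.08; adjusted p = 0.0433). The Gpi1 call held in 9 of 18 settings, and in deletion Gpi1 differed by 0.24 ± 0.08 (adjusted p = 0.0687) and passed without anergy replicate 3 (adjusted p = 0.0371).

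Other named genes had profiles close to those of the members. After Pmm1, B4galt5 was nearest to Gmds, at a root mean square difference of 0.144 over the 9 arrays, and B3gnt5 followed at 0.161. Arsb, a lysosomal sulfatase, was nearest to Gnpda1 (0.117) and second nearest to Pmm1 (0.132), and Txndc12 (0.129) and Nans (0.136) followed for Gnpda1. B4galt5 followed for Pmm1 (0.158). Mrpl27 (0.152), Vcan (0.179) and Txndc12 (0.179) were nearest to Uap1l1, against a median of 0.758 over named genes. Sgsh (0.0911), Cog3 (0.0994) and Fibp (0.102) were nearest to Slc35d2, against a median of 0.328. Among the 5 genes, the pairs without Slc35d2 lay 0.112 to 0.303 apart and those with it 0.918 to 1.08.

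Between the 2 tolerized states 0 of the 5 genes passed in limma, where 3.37% of all 1246 probe sets did (2.09% higher and 1.28% lower in deletion), and 4 of the 5 had an unadjusted p under 0.05, where 15.1% of all probe sets did. Gmds, Pmm1 and Gnpda1 had lower means in deletion than in anergy, Uap1l1 and Slc35d2 higher ones. Pmm1 averaged 7.69 ± 0.19 in deletion and 8.10 ± 0.23 in anergy (SD, n = 3 each), a difference of -0.40 ± 0.13 (SE; 95% limits -0.69 to -0.12; adjusted p = 0.136). Gmds averaged 7.07 ± 0.07 and 7.38 ± 0.30, a difference of -0.31 ± 0.14 (adjusted p = 0.326). Gnpda1 averaged 7.54 ± 0.04 and 7.80 ± 0.10, a difference of -0.27 ± 0.07 (-0.43 to -0.11; adjusted p = 0.0771), and it alone of the 5 had groups that did not overlap, as was seen downward for 5.62% of all probe sets. Slc35d2 was 0.32 ± 0.12 higher in deletion (adjusted p = 0.219) and Uap1l1 0.17 ± 0.12 higher (-0.09 to 0.43; adjusted p = 0.525).

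Several of these calls turned on the handling of the arrays. With the replicate number as a block Pmm1 passed (adjusted p = 0.0184). Anergy replicate 3 held the lowest anergy value of each gene, and with it left out the differences were -0.48 ± 0.09 for Gmds (adjusted p = 0.0426), -0.54 ± 0.11 for Pmm1 (0.0473) and -0.31 ± 0.07 for Gnpda1 (0.0564). Those of Uap1l1 and Slc35d2 were then 0.10 ± 0.13 and 0.21 ± 0.11 (adjusted p = 0.803 and 0.461). Array weights and quantile normalization each let all 3 pass, and with median centring 0 of the 5 passed. Across the whole array 26 probe sets passed as higher in deletion and 16 as lower. Quantile normalization gave 32 higher and 38 lower, array weights 44 and 31, the replicate block 33 and 22, and median centring 13 of each. Without anergy replicate 3 the counts were 17 and 19. Of the 53 supply and transporter genes only Slc35b3 passed, with 9.23, 9.23 and 9.12 in deletion replicates 1 to 3 against 8.74, 8.65 and 8.16 in anergy replicates 1 to 3, a difference of 0.68 ± 0.13 (adjusted p = 0.023) that was 0.50 ± 0.07 without anergy replicate 3 (adjusted p = 0.00766).

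**Figure D4:**
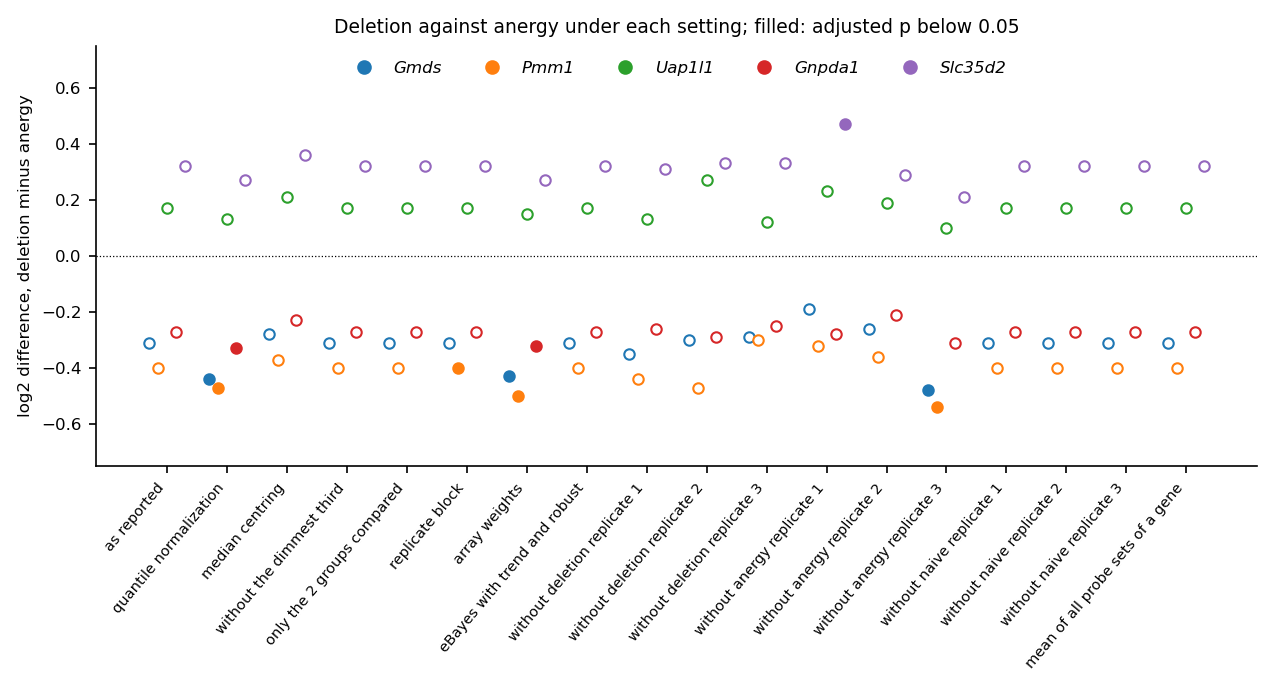
Log2 difference, deletion minus anergy, of each of the 5 genes as reported and under 17 alternative settings; filled points passed an adjusted p of 0.05. Gmds, Pmm1 and Gnpda1 lie below 0 and Uap1l1 and Slc35d2 above 0 under every setting plotted, and filled points occur only after quantile normalization, with the replicate block, with array weights and without anergy replicate 1 or 3.

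Genes listed as markers of other cells moved in part with the same contrasts, and their part in these results was not tested. Whether CD8 T cells themselves express these genes was not checked. Of 4 measured B cell markers, 2 rose and 1 fell in deletion and 1 rose and 1 fell in anergy; their summed linear level was 404 to 574 in deletion, 376 to 433 in anergy and 610 to 680 in naive arrays. Their mean log2 level, which the brightest marker sways less, was 5.94 to 6.34 in deletion, 5.88 to 6.03 in anergy and 5.96 to 6.11 in naive arrays, and their median difference was 0.30 in deletion and 0.08 in anergy. Of 12 macrophage and dendritic cell markers, 0 rose and 1 fell in each comparison with naive cells, with sums of 206 to 243 in deletion, 211 to 219 in anergy and 256 to 263 in naive arrays. Of 3 genes listed as natural killer cell markers, Klra8, Klra4 and Klrk1, 0 passed in deletion and 1 rose in anergy. Their sums were 20.2 to 25.1 in deletion, 26.2 to 26.7 in anergy and 20.9 to 23.8 in naive arrays. Of 5 erythroid and granulocyte markers 1 rose in each comparison with naive cells, with sums of 63.6 to 67.5 in deletion, 58.0 to 65.4 in anergy and 62.4 to 69.6 in naive arrays. Of 7 endothelial, stromal and platelet markers 1 rose in deletion and 1 fell in anergy (sums 547 to 611 in deletion, 353 to 419 in anergy and 444 to 472 in naive arrays; mean log2 levels 4.18 to 4.23 in deletion, 4.14 to 4.22 in anergy and 4.18 to 4.24 in naive arrays). Cd4, Foxp3 and Ctla4 had no named probe set, so only Il2ra, Il4 and Il17a stood for CD4 and regulatory T cells. Of these 3, 0 passed in deletion and 1 rose in anergy. Their sums were 25.1 to 27.9 in deletion, 38.3 to 42.8 in anergy and 25.1 to 26.0 in naive arrays. These values have no true zero, so no marker was called absent.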

How the data were processed

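Total RNA came from a Trizol extraction, and per the labels' protocols 0.5 micrograms of it went into biotinylated cRNA. Deposited values are on a log2 scale; the submitters' processing notes name RMA and nothing else, with no version, so the scale was read from that name and from the range of 1.67 to 13.86. A RefSeq gene table of GRCm38.p6 served for names only and matched 77.3% of probe sets. Where several probe sets name a gene, the brightest on average stands for it.

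Group means were fitted to the values as deposited with limma (version 3.58.1, R version 4.3.3; lmFit and eBayes; 9 arrays, 6 residual and 3.65 prior degrees of freedom), two-sided, with Benjamini-Hochberg adjustment over 1246 probe sets and a threshold of 0.05. The fit was tested on simulated data with independent noise for each probe set and no array-wide effect. That test cannot show how the fit handles an array such as anergy replicate 3. Precision is limited by 3 arrays a group, with a median SE of 0.087 for a difference. The alternatives were other scalings, a filter on dim probe sets, fits to the compared groups only, a replicate block, array weights, a trended and robust eBayes, gene means, and each array left out.

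The genes, gene lists and tests were chosen with earlier results of these data known. The text names the 5 genes, 6 relatives, examples of the supply, transporter and user genes, and the 3 nearest profiles of each of the 5. Same-numbered deletion and anergy arrays deviated together (r = 0.195, 0.270 and 0.280), against -0.303 to 0.160 for other-numbered pairs. Deletion replicate 1 and naive replicate 3, of unlike number, reached 0.286, so correlations of this size do not establish a pairing. The value with the number as a block is given where it changes a call, and this pairing comes from the data, not the labels. Same-numbered pairs with naive arrays ran from -0.154 to 0.274.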

Additional observations from a re-analysis of the deposited data

Results flagged for a closer look

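Among the supply and transporter genes, 1 had effects of the weak and the strong signal that differed from each other by the direct test. The sulfate donor carrier Slc35b3 was 0.68 ± 0.13 higher in deletion than in anergy on the log2 scale (SE; limma, adjusted p = 0.023). It lay near the naive level in deletion, at 9.19 ± 0.06, against 8.52 ± 0.31 in anergy and 9.21 ± 0.09 in naive cells (SD, n = 3 each). All 3 deletion arrays were above all 3 anergy arrays, and the call held in 13 of 18 settings. Without anergy replicate 3, the lowest of the 9 arrays, the difference was 0.50 ± 0.07 (adjusted p = 0.00766). Groups of 3 arrays are too small for a check of single outlying values.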

How the results depend on the processing

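Of 255 values of the 5 genes under 17 alternatives, 240 kept their direction and their side of the threshold, 10 newly passed it, 5 no longer did and 0 turned sign. The 5 losses were all of Slc35d2 in anergy against naive: -0.43 (adjusted p = 0.0696) with the deletion arrays out of the fit, and 4 of the fits with 1 array left out, over which it ran from -0.58 to -0.31. The 10 gains were all in deletion against anergy. Quantile normalization gave -0.44 for Gmds, -0.47 for Pmm1 and -0.33 for Gnpda1, array weights -0.43, -0.50 and -0.32, and the replicate block -0.40 for Pmm1. With 1 array left out, the difference ran from -0.48 to -0.19 for Gmds, from -0.54 to -0.30 for Pmm1 and from 0.21 to 0.47 for Slc35d2, which passed without anergy replicate 1 (adjusted p = 0.0181). The number of the 5 genes past the threshold in deletion against anergy, 0 as reported, was 3 with quantile normalization, 3 with array weights, 1 with the replicate block and 0 to 2 with 1 array left out (2 without anergy replicate 3). Of the 53 supply and transporter genes, 1 as reported, the number was 9 with quantile normalization, 5 with array weights, 2 with the replicate block, 0 with median centring, 0 with only the compared groups fitted and 0 to 3 with 1 array left out (0 without any 1 deletion array, 3 without anergy replicate 3). Over all 1246 probe sets, 2.09% passed as higher in deletion and 1.28% as lower as reported. Quantile normalization gave 2.57% and 3.05%, array weights 3.53% and 2.49%, and the replicate block 2.65% and 1.77%. Median centring gave 1.04% and 1.04%, and the compared groups alone 0.642% and 1.04%. With 1 array left out these shares ran from 0.642% to 2.41% and from 0.963% to 1.52%. Whether the counts differ from the shares was not tested. Among relatives that did not pass, signs turned for Gfus with quantile normalization (0.04 in deletion and 0.07 in anergy against naive, -0.03 in deletion against anergy), for Mpi in deletion against naive with 1 array left out (-0.08 to 0.11), and for Slc35d1 in deletion against anergy with array weights (-0.03) and with 1 array left out (-0.07 to 0.08). In deletion against naive with 1 array left out, Gfus ran from -0.04 to 0.00 and Pmm2 from -0.10 to 0.00, where a value that rounds to 0.00 shows no direction. Apart from the deletion against anergy call of Pmm1, the replicate block changed no call of the 5 genes. The causes of these shifts were not tested.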
